A study of Mus musculus with 9 samples.

Results

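Acvr1c, the gene of the type I receptor ALK7, was followed with 7 other genes of activin signalling in primary brown fat cultures: the receptors Acvr1b, Acvr2a and Acvr2b, the ligand genes Inhba, Inhbb and Gdf3, and the antagonist gene Fst. These 8 genes, of 19858 named on the array, were taken as a list, each by its brightest probe set that maps to 1 gene symbol. Each of the 8 had 1 such probe set. Acvr1c was chosen by its lower level with lysophosphatidic acid (LPA) against control in these arrays, so its LPA values are given as a description with no test. The other 7 genes were listed for their part in the pathway, with results of these data already known.

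The cultures came from interscapular brown fat of male C57BL/6 mice aged 5 weeks, from a fraction enriched in precursor cells, and all were grown with serum and rising insulin. The control group received the vehicle DMSO (subjects 1 to 3), the second group HA155 at 2.5 µM (subjects 4 to 6), and subjects 7 to 9 received 1-oleoyl LPA at 5 µM. HA155 is an inhibitor of autotaxin, which is secreted and produces LPA, and the design asks which genes this enzyme and its product regulate. The labels place treatment at 9 days in vitro while the design text says that it was given during differentiation, which leaves the duration of exposure unclear. Each group held 3 cultures, and whether these came from separate animals is not stated beyond the subject numbers, and p-values reflect only how much the cultures varied.

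Activins are dimers of inhibin beta subunits. They bind the type II receptors Acvr2a or Acvr2b. These recruit and phosphorylate the type I receptor Acvr1b (ALK4) or, for only some of the dimers, Acvr1c (ALK7). The type I receptors pass the signal to Smad2 and Smad3. Follistatin, the product of Fst, binds activins and keeps them from their receptors. ALK7 is best known from fat cells, where it holds back lipolysis and favours fat storage, and Gdf3 is one of its ligands.

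Total RNA was measured on 9 arrays. Precision is limited by this number, with a median SE of 0.076 for log2 differences over the genes tested. A gene was tested with limma when its mean log2 intensity reached 5.59 (intensity 48.2), the 40th percentile of all probe sets, and it counted as called at an adjusted p below 0.05. All 8 genes were tested. On the first principal component the LPA arrays scored 19.6 to 28.7, highest for LPA array 8, and the other 6 scored -15.5 to -7.28, so results are also given without that array where it matters. All 7 general adipocyte markers with a probe set were above the filter, among them Adipoq and Plin1. Of 11 brown adipocyte markers Ucp1, Dio2 and Elovl3 were below it in every group mean. Cidea was below it as a mean over all arrays, at a log2 level of 4.92 in control and 4.75 with LPA, but reached 6.39 with HA155 with no overlap (limma fit with no filter, adjusted p = 0.00108). The macrophage markers Adgre1, Itgam, Ptprc and Cd163 were below the filter in every group mean, and their groups overlapped in every comparison.

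The promoters of Acvr1c and of a receptor and a ligand gene that rose with LPA are shown so that the gene that was lower can be set beside genes that were higher. Each run is the 250 bases before an annotated start, from RefSeq on GRCm38.p6, 5′ to 3′ on the strand of the gene, with GC boxes (GGGCGG on either strand) in capitals. Of the 8 genes 6 matched the promoter table, and Gdf3 and Fst did not.
Acvr1c upstream start, chr2:58357759-58358008, minus strand: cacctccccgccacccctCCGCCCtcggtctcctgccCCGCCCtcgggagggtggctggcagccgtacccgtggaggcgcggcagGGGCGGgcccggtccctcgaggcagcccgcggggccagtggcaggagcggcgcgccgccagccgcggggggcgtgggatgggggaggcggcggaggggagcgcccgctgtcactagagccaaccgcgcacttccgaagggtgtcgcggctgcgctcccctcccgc
Acvr1c downstream start, chr2:58324808-58325057, minus strand: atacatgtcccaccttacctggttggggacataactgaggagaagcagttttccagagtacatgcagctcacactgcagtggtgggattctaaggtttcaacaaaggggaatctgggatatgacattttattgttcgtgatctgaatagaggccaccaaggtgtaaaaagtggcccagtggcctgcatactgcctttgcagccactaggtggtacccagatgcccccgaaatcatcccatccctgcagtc
Acvr1b, chr15:101173822-101174071, plus strand: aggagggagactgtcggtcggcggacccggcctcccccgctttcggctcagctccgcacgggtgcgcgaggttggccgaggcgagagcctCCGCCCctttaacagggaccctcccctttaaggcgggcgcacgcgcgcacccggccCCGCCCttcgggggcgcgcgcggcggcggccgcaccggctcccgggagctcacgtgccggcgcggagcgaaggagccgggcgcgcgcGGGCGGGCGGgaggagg
Inhba, chr13:16011601-16011850, plus strand: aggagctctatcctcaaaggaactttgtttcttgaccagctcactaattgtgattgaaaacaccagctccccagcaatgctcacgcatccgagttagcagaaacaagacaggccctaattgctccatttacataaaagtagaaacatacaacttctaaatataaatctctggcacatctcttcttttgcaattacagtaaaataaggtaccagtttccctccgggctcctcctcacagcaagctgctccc
The upstream start of Acvr1c lay in GC-rich sequence (79.6% G or C, against a median of 52.4% over 32851 promoter windows of the same length) and held 3 GC boxes. The downstream start was 49.6% G or C and held none. The array has 1 probe set for Acvr1c, so transcripts from the 2 starts were not told apart. Acvr1b, at 78.8% G or C, held 4 GC boxes, 2 of them overlapping each other and an Egr motif (GCGNGGGCG). The windows of Acvr2a, Acvr2b and Inhbb, not printed here, were 82%, 72.8% and 68% G or C and held 2, 3 and 1 GC boxes. Inhba, at 43.2% G or C, held no GC box and 1 C/EBP motif (TTGCNNAA). A GC box was present in 32.7% of all windows, an Egr motif in 4.70% and a C/EBP motif in 9.56%. A DR1 element (a direct repeat of AGGNCA with 1 base between the copies), a Smad palindrome (GTCTAGAC), a TEAD motif (GGAATG) and an AP-1 motif (TGANTCA) were also searched on both strands. None of these 4 sets of letters was in any of the 7 windows of the 6 genes, and they occurred in 0.338%, 0.167%, 12.6% and 6.75% of all windows. A match is a description of the letters and does not show that a factor binds there.

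On the log2 scale Acvr1c, chosen by its LPA values, spanned the widest range of the 8 genes across the cultures. Its intensity was 430, 458 and 395 in the control arrays, 542, 534 and 542 with HA155, and 102, 77.8 and 103 with LPA. The 3 groups did not overlap: LPA was lowest, control in the middle and HA155 highest. In log2 terms the means were 8.74 ± 0.11 in control, 9.07 ± 0.01 with HA155 and 6.55 ± 0.23 with LPA (SD, n = 3 each). Acvr1c was therefore 4.57-fold lower with LPA than in control, a log2 difference of -2.19 (SE 0.10). Only 1 of 13335 genes tested had a larger log2 decrease in that comparison. Against HA155 the log2 difference with LPA was -2.53 (SE 0.10), 5.77-fold, and ranked sixth largest among decreases. Leaving out LPA array 8, which held the lowest value, the differences were -2.06 against control and -2.40 against HA155. The LPA mean of Acvr1c stood 0.96 above the intensity filter on the log2 scale.

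With HA155 the mean of Acvr1c was 1.26-fold that of control. This log2 difference of 0.34 (SE 0.10, 95% interval 0.11 to 0.56) was higher in 3 of 3 arrays but did not pass (limma adjusted p = 0.265). It uses the same control arrays as the LPA comparison. Over 18 other settings the adjusted p ran from 0.0231 to 0.653. It passed in 3 of them: with only the 2 groups compared, with array quality weights, and without LPA array 8 (adjusted p = 0.0231), an array whose weight here comes from the common variance and the filter.

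**Figure D1:**
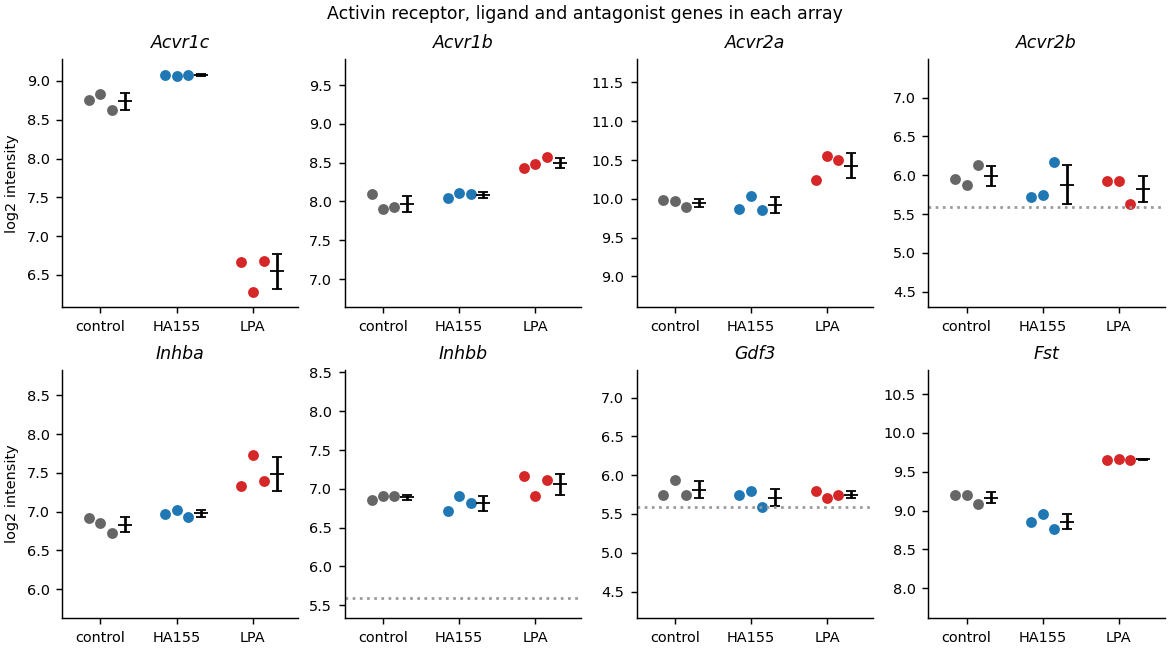
Log2 intensity (vertical axes, each spanning the same number of log2 units) of the 8 genes in each array, by group, with the group mean and SD (n = 3) in black and the intensity filter of 5.59 as a dotted line where it falls within the axis. Acvr1c was lowest in the 3 LPA arrays, while Acvr1b, Acvr2a, Inhba and Fst were highest there, and Acvr2b and Gdf3 lay near the filter in every group.

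The other type I receptor went the opposite way. Acvr1b measured 273, 239 and 243 in the control arrays, 263, 275 and 274 with HA155, and 346, 357 and 380 with LPA. All 3 LPA values were above all others, while control and HA155 overlapped. On the log2 scale Acvr1b rose with LPA by 0.52 (SE 0.07, limma adjusted p = 0.000205), 1.44-fold over control. It rose by 0.41 against HA155 (SE 0.07, limma adjusted p = 0.000864). HA155 differed from control by 0.11 (95% interval -0.04 to 0.26), which did not pass (limma adjusted p = 0.825).

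Of the type II receptors, which bind the ligand, Acvr2a had intensities of 1013, 1008 and 948 in control, 938, 1052 and 927 with HA155, and 1209, 1494 and 1448 with LPA. Its LPA arrays lay above all 6 others, and LPA array 7 was the lowest of the 3. Acvr2a rose with LPA by 0.48 (SE 0.09, limma adjusted p = 0.00196) against control and by 0.51 (SE 0.09, limma adjusted p = 0.00115) against HA155. HA155 and control overlapped and differed by -0.03 (95% interval -0.22 to 0.16). Acvr2b was dim, at 62.2, 58.6 and 70.1 in control, 52.6, 53.7 and 71.9 with HA155, and 60.7, 60.7 and 49.4 with LPA. Its groups overlapped in every comparison and its log2 differences (-0.16 for LPA and -0.11 for HA155, each against control, and -0.05 between LPA and HA155) did not pass. Its SE of 0.13 was above the median of 0.076 over the genes tested, so a small change this close to the filter could be missed.

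Among the ligand genes Inhba, which encodes the subunit of activin A, measured 121, 116 and 106 in control, 126, 130 and 122 with HA155, and 161, 213 and 168 with LPA. The LPA arrays were again above all others, with LPA array 8 highest. Inhba had the largest rise of the list against control, 0.65 (SE 0.10, limma adjusted p = 0.000651), or 1.57-fold, and 0.51 against HA155 (SE 0.10, limma adjusted p = 0.00279). Without LPA array 8 the rise over control was 0.53 and still passed (limma adjusted p = 0.000432). The HA155 arrays were all slightly above the control arrays, by 0.14 in the mean, which did not pass (limma adjusted p = 0.858).

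Inhbb, which encodes the subunit of activin B, measured 116, 120 and 120 in control, 105, 120 and 112 with HA155, and 143, 120 and 138 with LPA. One identical value recurred in 4 arrays, including LPA array 8, so the LPA group overlapped both others. Against control the difference of 0.17 (95% interval -0.0010 to 0.34) did not pass (limma adjusted p = 0.148). It passed without LPA array 8, at 0.24 (limma adjusted p = 0.0241). Inhbb was higher with LPA than with HA155 by 0.25 (SE 0.08, limma adjusted p = 0.0351). That call was lost in 10 of 18 other settings, including without control 2 or 3, HA155 array 4 or 6, or LPA array 7 or 9 (adjusted p up to 0.149 over the settings). Gdf3 lay between 48.0 and 61.2 in all 9 arrays, near the filter, with overlapping groups and log2 differences of -0.06, -0.10 and 0.04 that did not pass (limma adjusted p = 0.627 or more). Its low level gives little room to see a decrease.

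Fst, the gene of the antagonist, separated all 3 groups and in the order opposite to Acvr1c. It measured 590, 590 and 543 in control, 461, 495 and 435 with HA155, and 807, 814 and 804 with LPA. Fst rose with LPA by 0.49 over control (SE 0.06, limma adjusted p = 0.000225), 1.41-fold, and by 0.80 over HA155 (SE 0.06, limma adjusted p = 5.15e-06), 1.75-fold. With HA155 it was lower than in control in 3 of 3 arrays, by 0.31 (SE 0.06, 95% interval 0.17 to 0.45), and narrowly missed the threshold (limma adjusted p = 0.0551, unadjusted p = 0.000589). Over 18 other settings this adjusted p ran from 0.014 to 0.289 and passed in 6, including without LPA array 8 (adjusted p = 0.0395). The 3 LPA arrays were nearly equal (SD 0.01), and 2 control arrays held the same value.

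Among the 7 genes other than Acvr1c, 4 rose with LPA against control, 0 fell and 3 did not pass. Over all genes tested 23% were called in that comparison, 12.2% higher and 10.8% lower. The median log2 difference of the 7 was 0.48, against 0.01 over all genes. The same 4 genes were higher with no overlap between the groups, as were 17.5% of all genes, while 15.6% were lower and 33.1% were separate in either direction. Against HA155, 5 of the 7 were called higher with LPA, the fifth being Inhbb, and 0 lower. There the background was 26.1%, with 13.7% higher and 12.4% lower. In that comparison 4 of the 7 did not overlap, all 4 higher with LPA, beside 38.7% of all genes in either direction, 20.5% higher and 18.2% lower. With HA155 against control 0 of the 7 passed by limma and 1, Fst, had an unadjusted p below 0.05. Over all genes 1.03% passed, 0.607% higher and 0.427% lower, and 8.11% had an unadjusted p below 0.05. Inhba was higher without overlap and Fst lower, as were 8.87% and 7.9% of all genes and 16.8% in either direction. The comparisons share arrays, so they are not independent of each other.

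**Figure D2:**
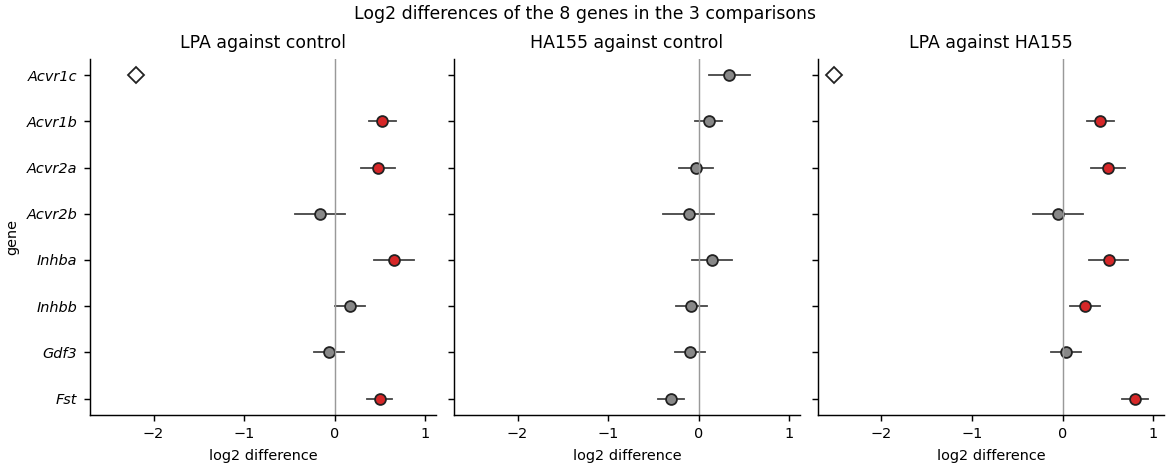
Log2 differences (horizontal axis) of the 8 genes in the 3 comparisons, with 95% intervals from the limma fit (lines). Red points passed at an adjusted p below 0.05 and grey points did not, and the open diamonds are Acvr1c in the LPA comparisons, shown with no test. Acvr1b, Acvr2a, Inhba and Fst lay to the right of 0 in both LPA comparisons and Acvr1c far to the left.

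Other genes of the pathway were then counted, from lists chosen with earlier results known. Each count is to be read beside the share over all genes tested. With LPA against control 12.2% were called higher and 10.8% lower, and with LPA against HA155 13.7% and 12.4%. With HA155 against control 1.03% were called and 8.11% had an unadjusted p below 0.05. Of the related receptors of the family, 6 of 8 tested rose with LPA and 0 fell (median 0.38). These included Tgfbr2, a TGF-beta type II receptor (0.43), the co-receptor Tgfbr3 (0.53) and Eng, a co-receptor prominent in endothelial cells (0.46). Tgfbr1 (0.21, limma adjusted p = 0.0556) and the BMP type II receptor Bmpr2 (0.34, limma adjusted p = 0.133) did not pass. Against HA155, 6 of 8 were higher with LPA, with Tgfbr2 at 0.65 (limma adjusted p = 1.86e-05). The endothelial receptor Acvrl1 was higher by 0.48. With HA155 against control 0 of 8 passed by limma and 1, Tgfbr2, had an unadjusted p below 0.05, with a difference of -0.21 (limma adjusted p = 0.232), while Acvrl1 measured -0.15 and Bmpr1a 0.12. None of these 8 had a log2 difference below 0 with LPA against control.

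Of other ligand genes that use activin receptors 5 of 10 with a probe set were tested, and 3 rose with LPA, beside 12.2% of all genes. These were Gdf11 (0.39, limma adjusted p = 0.00265), Bmp6 (0.39, limma adjusted p = 0.00375) and Bmp4 (0.18, limma adjusted p = 0.0496). Bmp4 kept its call in 1 of 17 other settings, the mean of probe sets, and lost it when any 1 of the 9 arrays was left out (adjusted p up to 0.144). Inha, the inhibin alpha subunit, which turns beta subunits into the antagonist inhibin, measured 0.06 against control, and was higher with LPA than with HA155 by 0.27 (limma adjusted p = 0.0126; 0.063 without HA155 array 4). Against HA155 4 of these ligand genes were called, among them Gdf11 (0.45, limma adjusted p = 0.000902) and Bmp6 (0.38, limma adjusted p = 0.00385), and 2 without HA155 array 4. With HA155 against control 0 of 5 passed by limma and 2 had an unadjusted p below 0.05, Inha (-0.21) and Inhbc (-0.21), beside 8.11% of all genes. The myostatin gene Mstn, Nodal, Bmp2, Bmp7 and Inhbe were below the filter. The convertase genes Pcsk5 (0.40, limma adjusted p = 0.000497) and Pcsk6 (0.30, limma adjusted p = 0.039), whose products cleave precursors of this ligand family, also rose with LPA, while Furin measured 0.03. Against HA155 Pcsk5 was higher with LPA by 0.43 (limma adjusted p = 0.000264) and Pcsk6 measured 0.17 (limma adjusted p = 0.211). With HA155 0 of 4 passed by limma, and 0 had an unadjusted p below 0.05. The call for Pcsk6 was lost in 10 of 18 other settings, including without control 2 or 3, any HA155 array, or LPA array 8 or 9 (adjusted p up to 0.147).

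Of the co-receptors and other antagonists 5 of 10 were tested, and 1 rose with LPA against control, beside 12.2% of all genes. Fstl3, a relative of follistatin that also binds activins, rose with LPA by 0.28 (limma adjusted p = 0.0226), and its call was lost in 5 of 18 other settings, including without control 1 or LPA array 8 or 9 (adjusted p up to 0.103). Bambi, a decoy receptor, measured 0.06 and the Nodal co-receptor gene Cfc1 -0.12. Between LPA and HA155 Fstl3 differed by 0.18 (limma adjusted p = 0.123), and with HA155 against control by 0.10. In those comparisons 0 of 5 passed by limma, and 1 and 0 had an unadjusted p below 0.05, beside 35.6% and 8.11% of all genes. The Cripto gene Tdgf1, a co-receptor for Gdf3 and Nodal, was below the filter, as were Lefty2 and Cer1.

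Downstream of the receptors, 7 of 13 tested genes of the Smad2/3 relay rose with LPA and 0 fell (median 0.26), beside 12.2% and 10.8% of all genes. The signal carriers differed little: Smad3 rose by 0.26 (limma adjusted p = 0.0325), while Smad2 (0.08) and Smad4 (0.15) did not pass. The corepressor Tgif1 (0.46, limma adjusted p = 0.00186), the feedback inhibitor Pmepa1 (0.66, limma adjusted p = 0.00219) and the inhibitory Smad7 (0.57, limma adjusted p = 0.00397) led the list. The count was 4 without control 2 or without control 3, with no filter, with only the 2 groups compared, and with array weights. Against HA155, 7 were higher with LPA, and 4 without HA155 array 4 or without HA155 array 6. They included Ldlrad4, a membrane inhibitor of Smad signalling, at 0.43 (limma adjusted p = 0.00205). With HA155 against control 0 of 13 passed by limma and 1, Ldlrad4, had an unadjusted p below 0.05 (-0.19), beside 8.11% of all genes.

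Of known Smad2/3 target genes, 6 of 8 tested rose with LPA and 0 fell (median 0.60), beside 12.2% and 10.8% of all genes. Of the 6, 3 (Pmepa1, Skil and Smad7) are also in the relay list. The matrix-associated signalling gene Ccn2 rose by 0.95 (limma adjusted p = 0.000104), Tgfbi by 0.64 (limma adjusted p = 0.000142) and Ltbp2 by 0.63 (limma adjusted p = 0.0014). These genes also answer to TGF-beta and, for Ccn2, to other pathways, so the count does not single out activin. Against HA155, 5 of 8 were higher with LPA, and 3 without HA155 array 4, HA155 array 6 or LPA array 8. With HA155 against control 0 of 8 passed by limma and 3, Ccn2, Tgfbi (0.19) and Ltbp2 (0.26), had an unadjusted p below 0.05, beside 8.11% of all genes. Ccn2 measured 0.49 there (limma adjusted p = 0.0822) and passed with array quality weights, without control 3 or without LPA array 8 (adjusted p from 0.00842 to 0.343 over all settings).

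The listed lipolysis genes and adipocyte regulators were lower with LPA, as Acvr1c was, and whether ALK7 acts on them here was not tested. Over all genes tested 10.8% were called lower in that comparison with control. Plin1 and Ppargc1a are also counted among the cell type markers below. All 9 tested fell (median -0.71), among them the triglyceride lipase Pnpla2 (-1.43, limma adjusted p = 2.47e-07), the hormone-sensitive lipase Lipe (-1.50, limma adjusted p = 2.91e-07) and the monoglyceride lipase Mgll (-1.39, limma adjusted p = 2.33e-07). Pparg and Cebpa, transcription factors that drive fat cell formation, fell by 0.46 and 0.58. Lipe had the largest fall of the 9 against control. Against HA155 all 9 were again lower with LPA, with Pnpla2 at -1.63 and Lipe at -1.57. With HA155 against control 0 of 9 passed by limma and 1, Pnpla2, had an unadjusted p below 0.05 (0.20, limma adjusted p = 0.373), beside 8.11% of all genes.

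**Figure D3:**
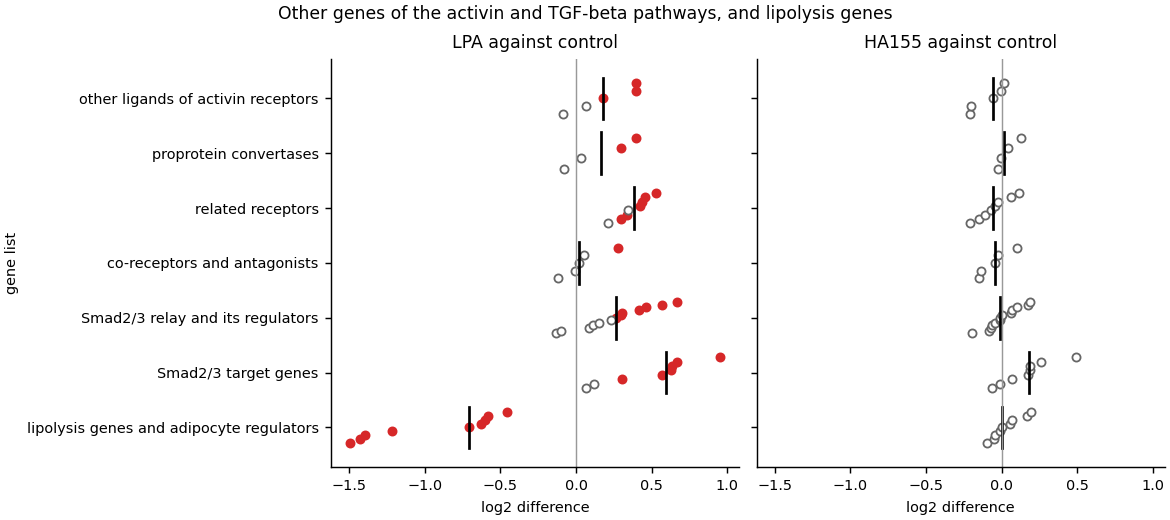
Log2 differences (horizontal axes) of the tested genes of 7 lists, for LPA against control and HA155 against control, with 1 point per gene, filled red where the adjusted p was below 0.05 and open otherwise, and the list median as a black bar. Receptor, relay and target genes lay mostly above 0 with LPA and lipolysis genes below it, whereas no gene passed with HA155.

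Markers of cell types were counted in the same way. Over all genes tested 12.2% were called higher and 10.8% lower with LPA against control. With HA155 against control 0.607% were called higher, 0.427% lower, and 8.11% had an unadjusted p below 0.05. The 7 general adipocyte markers all fell with LPA (median -1.22). With HA155 against control 2 of these 7 rose, Lep (0.66) and Cidec (0.65), and 5 did not pass (median 0.16). The summed intensity of the 7 was 29392 to 30524 in control, 30881 to 32283 with HA155 and 17702 to 18297 with LPA. Of the 6 precursor and fibroblast markers 5 rose with LPA (median 0.40), and their sum was 16983 to 17825 in control, 14548 to 16273 with HA155 and 21868 to 25282 with LPA. With HA155 against control 1 of the 6 fell, Dlk1 (-0.82), and 5 did not pass (median -0.18). Of the 7 brown adipocyte markers tested 3 fell with LPA, Cox7a1 (-1.84), Cox8b (-1.85) and Ppargc1a (-0.60), 1 rose, Zic1 (0.43), and 3 did not pass (median -0.23). With HA155 2 of the 7 rose, Cox7a1 (1.13) and Cox8b (1.01), and 5 did not pass (median -0.03). The sum of 11 brown adipocyte markers was 1998 to 2093 in control, 2838 to 2982 with HA155 and 1365 to 1559 with LPA, and Cox7a1 and Cox8b made most of its HA155 rise. All sums are of linear intensity, so the brightest genes weigh most: Lpl and Fabp4 (adipocyte), Col1a1 (precursor) and Lyz2 (macrophage). Of 7 skeletal muscle markers 4 rose with LPA, Myh1 (0.98), Actc1 (0.76), Des (0.58) and Acta1 (0.45). Myog (0.02), Myod1 (-0.03) and Ckm (0.05) did not pass. Sums of the 7 were 950 to 975 in control, 961 to 1044 with HA155 and 1331 to 1483 with LPA, with Acta1 and Actc1 the brightest. With HA155 against control 1 of the 7 rose, Myh1 (0.64), and 6 did not pass. Of 3 endothelial markers tested 1 rose with LPA, Tek (0.37), while Cdh5 (0.17) and Vwf (-0.02) did not pass. With HA155 against control 0 of 3 passed, and Tek measured -0.29 (limma adjusted p = 0.0701). Sums over 5 were 351 to 371 in control, 333 to 345 with HA155 and 404 to 417 with LPA, and Tek was the brightest of the 5. Pecam1 and Kdr were below the filter as means over all arrays. The sum of 8 macrophage markers was 550 to 648 in control, 734 to 880 with HA155 and 537 to 822 with LPA, and 0 of 4 tested passed by limma in any comparison (1 had an unadjusted p below 0.05 with HA155). In whole cultures fewer cells of a type and less RNA per cell cannot be told apart, and the part of the cell mixture in the values of Acvr1c, Acvr1b, Acvr2a, Inhba and Fst was not tested. With LPA against control, the comparison by which it was chosen, Acvr1c (-2.19) lay beside Retn (-1.95) and Cidec (-1.88) at one end of the adipocyte markers and Lpl (-0.39) at the other. With LPA against HA155 Cidec (-2.53) equalled Acvr1c (-2.53) to 2 decimals, and the differences of Cox7a1 (-2.97) and Cox8b (-2.86) were larger.

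The genes whose profile was most like that of Acvr1c were found by Pearson correlation of log2 intensity over the 9 arrays, as a measure of likeness only, since the LPA arrays form a separate cluster and set most of it. The 10 highest were Me1, Slc25a1, Acadm, Aqp7, Prxl2a, Alas1, Pgam1, Acads, Nabp1 and Sncg, with r of 0.997 to 0.999. They include the lipogenic malic enzyme (Me1), the glycerol channel of fat cells (Aqp7), and acyl-CoA dehydrogenases of fatty acid oxidation (Acadm and Acads). Such likeness was common: 525 of 13334 genes had r of 0.95 or more. Over the 6 arrays without LPA the 10 genes had r of 0.885 to 0.970 with Acvr1c, and as deviations from group means over 9 arrays 0.759 to 0.977. The genes were picked as the highest on these same arrays, so these values are no separate check of the likeness. By either measure 0 of the 10 were among the 10 highest. Alas1 and Nabp1 held the same value in every control array, so likeness within that group could not be measured for them. The 5 lowest were Lgi2, Mmp3, Ier2, Lima1 and Fbln2, with r of -0.996 to -0.990. By the size of the change, as mean absolute difference from Acvr1c after centring on the control mean, the nearest were Thrsp (0.17), Slc2a4 (0.18), Adig (0.22), Gpd1 (0.23) and Cidec (0.23), followed by Hephl1, Retn, Apoc1, Rasd1 and Sncg. Only Sncg was among the 10 on both measures.

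Of the other 7 listed genes Fst had the lowest correlation with Acvr1c, with r of -0.943 over 9 arrays and -0.797 over the 6 without LPA. For deviations from group means its r was 0.125, so the reverse order lay between the groups and not within them. Acvr1b and Inhba had r of -0.907 and -0.895 over 9 arrays but 0.602 and 0.848 over the 6 without LPA, so they opposed Acvr1c only through the LPA arrays. For Acvr2a the values were -0.933 and -0.087. As deviations from group means r was 0.092 for Acvr1b, -0.680 for Inhba and -0.370 for Acvr2a.

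**Figure D4:**
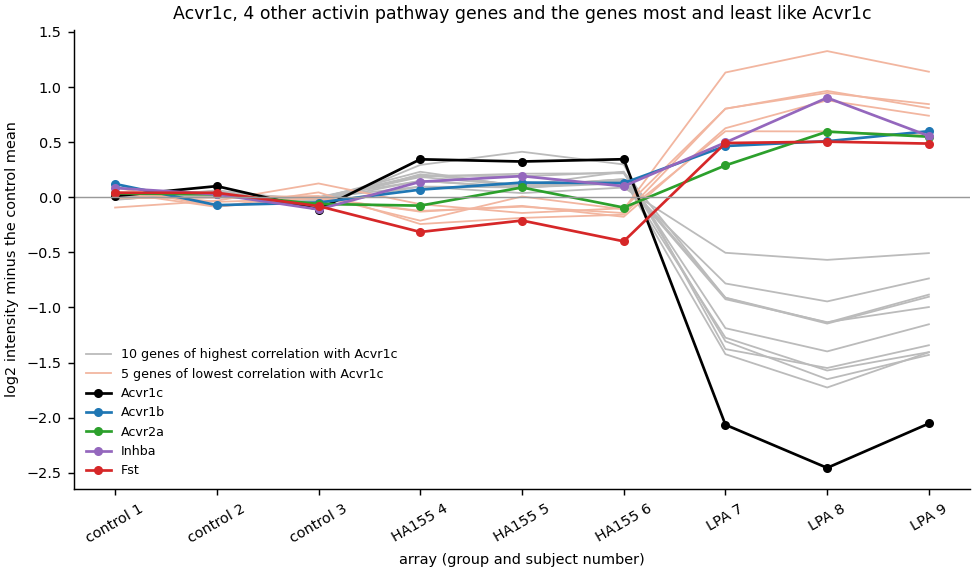
Log2 intensity minus the control mean (vertical axis) in each array (horizontal axis, group and subject number) for Acvr1c, Acvr1b, Acvr2a, Inhba and Fst, with the 10 genes of highest correlation with Acvr1c in grey and the 5 of lowest correlation in pale orange. Acvr1c was lowest in LPA array 8 and above the control mean in the 3 HA155 arrays, Fst was below its control mean there, and the grey genes followed Acvr1c with smaller changes.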

How the data were processed

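Total RNA of 9 primary brown fat cultures was hybridised to Affymetrix mouse arrays. The deposited values are intensities, 1 for each probe set on each array, from RMA according to the submitters' processing notes (version not given in the sources used here). The scale was read from the values as linear. RMA equalises the arrays' distributions, which can remove a global shift and compress changes of dim probes.

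Deposited intensities were put on the log2 scale without an offset. A single gene symbol was paired with 21706 of 35432 probe sets, 1605 had several and 12121 were not listed; symbols were updated by Entrez identifier (21615 matched). The brightest probe set stood for each of 19858 genes, and 13335 passed the filter. All 9 arrays entered 1 fit in limma 3.58.1 (R 4.3.3) with 6 residual degrees of freedom, two-sided tests and Benjamini-Hochberg adjustment over all genes tested. The labels name no batch, and one that ran with the groups and the treatment itself cannot be told apart. With 3 arrays against 3 an exact permutation test cannot go below p = 0.1. Members and lists were chosen with earlier results of these data known. Named pathway genes are mainly the 3 of smallest p per list and comparison; Smad2, Smad3, Smad4, Tgfbr1, Bmpr2, the 2 transcription factors Pparg and Cebpa, the markers named and the genes below the filter were added after their values were seen. On simulated data for LPA against control over 13335 genes, 34.8%, 72.8% and 98.8% of log2 changes of 0.3, 0.5 and 1 were recovered, with 4.72% of calls false. There only a small share of genes was changed, and each gene had 1 spread in all groups, which the limma fit also takes. In the real data 23% of genes were called in that comparison. The median SD was 0.107 with LPA, 0.074 in control and 0.054 with HA155, so these rates may not hold for the real arrays.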

Additional observations from a re-analysis of the deposited data

How the results depend on the processing

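In 18 other settings (2 other filters, the mean of probe sets, a trended robust variance, the 2 groups alone, 2 scalings, an offset of 16, array weights and 9 fits without 1 array) the signs and calls of Acvr1b, Acvr2a, Inhba and Fst with LPA held against both groups. Of 426 recomputed values of the 8 genes 400 counted as unchanged, which meant the same direction and side of the threshold. For the untested LPA values of Acvr1c it meant the same sign and a shift below the SD within groups. Of the rest 10 lost and 10 gained a call, 5 of uncalled differences changed sign, and 1, for Acvr1c, moved. The genes called with LPA against control were 2296 to 3150 with 1 array left out, and against HA155 2591 to 3460. For HA155 against control the 138 genes became 86 without a filter and 338 with array weights, and 39 to 235 with 1 array left out. Of the 7 genes other than Acvr1c, 1 (Fst) was called with HA155 at the stricter filter, with the trended robust variance, with quantile normalization, with the offset and with array weights, and 0 to 1 with 1 array left out. The cause was not tested. Leaving out 1 array turned the sign of small uncalled differences: Gdf3 with LPA against control (-0.091 to 0.0036) and against HA155 (-0.022 to 0.085), Acvr2a with HA155 (-0.085 to 0.0062), Acvr2b with LPA against HA155 (-0.13 to 0.092), Gdf11 with HA155 (-0.14 to 0.010) and Pcsk5 with HA155 (-0.061 to 0.00068). The offset moved Acvr1c in LPA against HA155 to -2.34. Gdf3 and Acvr2b could not be fitted at the stricter filter, nor could the pathway genes Bmp4, Inha, Inhbc, Bambi and Cfc1. Of the 10 genes most like Acvr1c, 1 was among the 10 highest by Spearman correlation, and 0 without LPA arrays or by deviations. Low intensity limits Gdf3 and Acvr2b. No paired analysis was possible because subject numbers differ between the groups.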
